A study of Panax japonicus with 5 samples.

Results

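The unigenes described here are those whose expression is stepwise lower from the young rhizome to the old rhizome and on to the secondary root of Panax japonicus, a ginseng relative with a bamboo-like underground stem. A unigene is a Trinity gene, the group of assembled contigs that share a gene identifier, and its counts and its FPKM (fragment counts scaled by contig length and library depth) were summed over its contigs. A unigene was a member if it had at least 100 counts over the 3 underground libraries, an FPKM in rhizome_Y of at least 1.5 times that in rhizome_O, and an FPKM in rhizome_O of at least 1.5 times that in secRoot. The rule chose 237 of 135235 unigenes, out of 13682 that passed the count minimum (1.73%), and 2 unigenes were left out of the members by the rule. The reversed rule found 191 unigenes that are stepwise higher from rhizome_Y to secRoot (1.4%), and these are given as a mirror set.

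Flower, leaf, rhizome_Y (young rhizome, at the bud scar nearest to the stem), rhizome_O (old rhizome, several scars further back) and secRoot (secondary root) came from a single untreated plant aged 7 years, grown outdoors in a garden and harvested in June. Poly(A) RNA of each tissue was sequenced as 1 library, so a difference between tissues also holds whatever differed between these 5 libraries, and no test and no p-value is given. The libraries held 2403221 (flower) to 4920387 (secRoot) counts, and where a library had 0 counts, up to 3 may have been missed, which is an FPKM of 0.61 in secRoot at an effective length of 1000 bp. All intervals of levels and of ratios are 95% intervals that cover counting error only. In such bulk tissue, fewer cells that use a gene and less RNA per cell cannot be told apart.

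A rhizome is a stem that grows underground. Its tip region forms buds and new tissue each year, while older segments and roots hold reserves and specialised compounds such as triterpene saponins. Growing tissue draws on starch breakdown, sugar activation and membrane lipid synthesis, and terpene synthesis supplies many of the specialised compounds of the ginseng family. The enzyme names used below are those of the enzyme table that accompanies the paper, which assigns each contig by sequence similarity, so a name stands for a family resemblance and not for a measured activity.

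The leaf library stood apart from the other 4. Members took 3.46% of all rhizome_Y counts, 1.56% of those in rhizome_O, 0.748% of those in secRoot and 2.08% of those in flower, but 0.018% (835 counts) of those in leaf. The median leaf FPKM was 0.16 in the members, 0.1 over all 13682 unigenes past the count minimum and 0 in the mirror set. A low level in leaf was thus not particular to the members. The green tissue enzyme list holds enzymes of photosynthesis and chlorophyll formation and had 84 unigenes. Their summed FPKM was 9007 in leaf against 2092 in rhizome_Y, while flower held 3348, secRoot 3658 and rhizome_O 2980. Of the 84, 42 were at 0 counts in leaf, near the 39 at 0 in rhizome_Y. Flower and secRoot each had 29 at 0 and rhizome_O had 23, so these zeros do not set leaf apart from rhizome_Y. Of the 13682 unigenes past the count minimum, 54 (0.395%) had their highest FPKM in leaf, and none of these was a member. The minimum was set on the underground libraries, so by itself it keeps out unigenes read mainly in leaf. At so small a share the members could hold none, and nothing is read from either number. The leaf values enter neither the rule nor any flower value, so results that do not name leaf need no leaf value. The leaf reads did enter the joint assembly, which set the contigs and their lengths. No assembly without leaf was made here.

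The underground values that chose the members are given as a description. The median FPKM of the 237 members was 69.9 in rhizome_Y, then 27.7 in rhizome_O and 11.8 in secRoot, whereas over all 13682 unigenes the medians were 32.3, 34.2 and 33.0. In rhizome_Y the members spanned an FPKM of 6.96 to 3594, and 14 of them exceeded 1000. The median ratio of rhizome_Y to rhizome_O was 1.97 (235 members with a value above 0 in rhizome_O) and that of rhizome_O to secRoot was 2.21 (224 members with a value above 0 in secRoot). Of the 224 members with both ratios, 96 had the larger ratio at the first step and 128 at the second, and 60 had at least 2-fold at both. In 192 of the 237 members the exact intervals of both count ratios lay above 1. In 234 members the counts per library total (CPM) were also lower at each step. The other 3 were 2 members at 0 counts in both rhizome_O and secRoot, and the galactokinase unigene described with the enzymes.

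**Figure D1:**
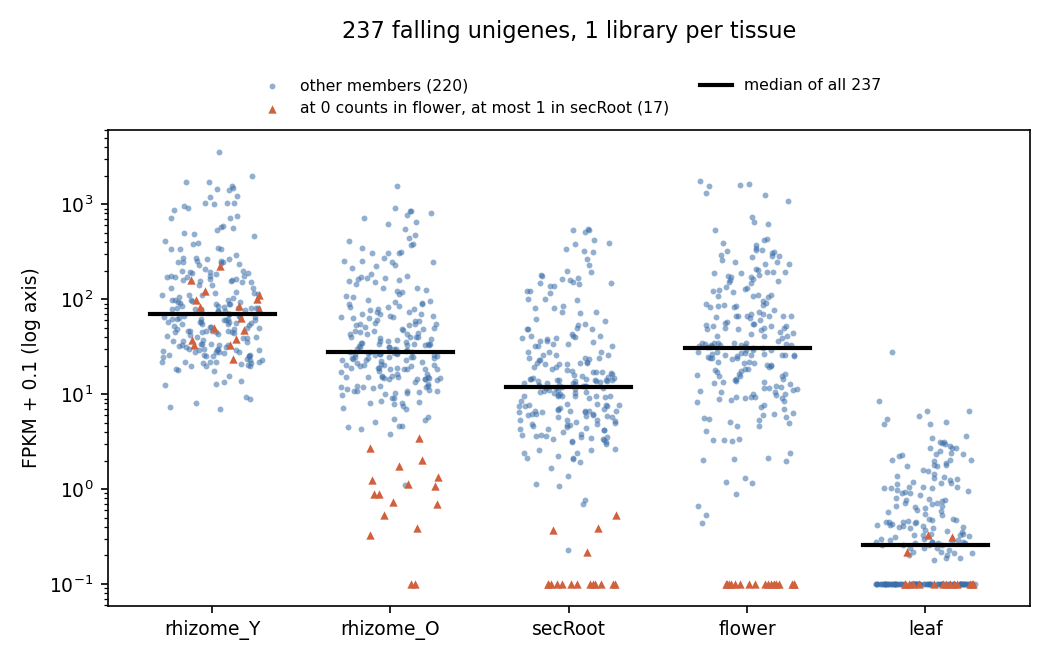
FPKM plus 0.1 on a log axis for the 237 members in each of the 5 libraries, with each point a unigene and the black bar the median. The medians step down from 69.9 in rhizome_Y to 27.7 in rhizome_O and 11.8 in secRoot as the rule demands, flower lies near rhizome_O, leaf lies far below, and 17 members (triangles) are near 0 everywhere but in rhizome_Y.

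The 1.5-fold limit cuts through a continuous range. The 5 members nearest to it had a smaller step ratio of 1.5 to 1.503, and the 5 unigenes nearest on the other side had 1.495 to 1.499. Between 1.5 and 1.6 lay 65 members, and between 1.4 and 1.5 lay 93 unigenes that were not members.

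Flower was not used by the rule. The members' flower FPKM had a median of 30.4 (quartiles 9.9 and 89.7), against 30.2 (16 and 61.8) over all unigenes past the minimum and 11.7 (4.12 and 24.7) in the mirror set. The members' middle level in flower was thus close to that of all unigenes, with a wider spread in both directions. Flower was at least 1.5 times rhizome_Y in 32 members (13.5%, background 18.5%), and rhizome_Y was at least 1.5 times flower in 145 (61.2%, background 28.4%). Flower was at least 1.5 times secRoot in 160 members (67.5%, background 23.3%), and secRoot was at least 1.5 times flower in 48 (20.3%, background 31.7%). The rule, which took members with a high rhizome_Y and a low secRoot, moves these shares by itself, so nothing is read from them about the members. In the mirror set, 5 of 191 had flower at least 1.5 times secRoot (2.62%) and 169 had the opposite (88.5%).

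The place of flower among the underground tissues is given as a description, since the rule fixed the order of the other 3. Flower lay above rhizome_Y, and so highest, in 57 members (24.1%, background 29%), and below secRoot, and so lowest, in 53 (22.4%, background 40%). The exact interval of the ratio of flower to rhizome_Y lay above 1 in 42 members (17.7%, background 22.2%), below 1 in 139 (58.6%, background 30.3%) and across 1 in 38 (16%, background 46.7%), and the other 18 members had no count in flower. These shares too go with the rule's choice of a high rhizome_Y, and nothing is read from them.

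**Figure D2:**
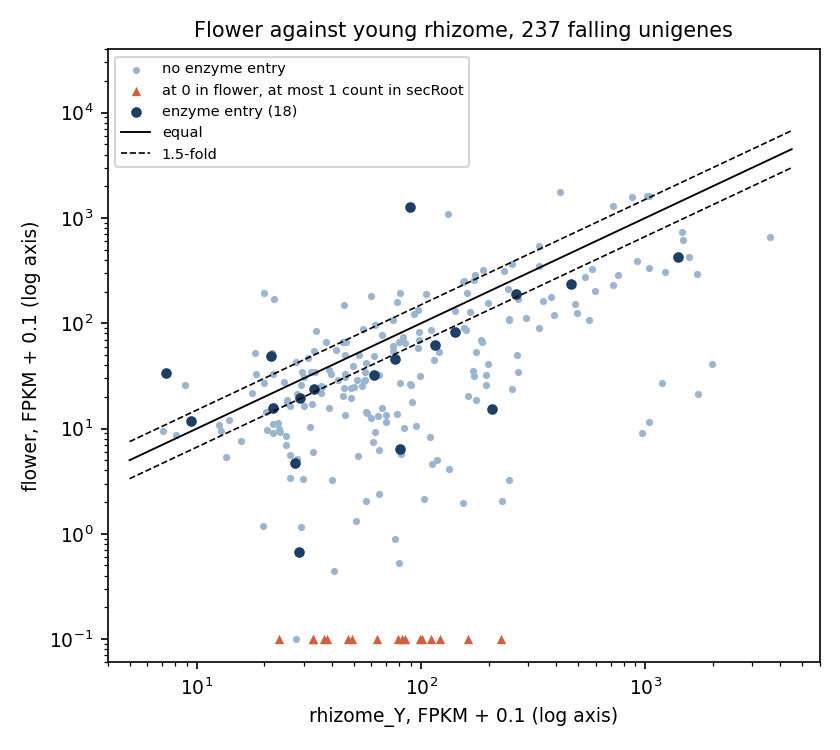
Flower FPKM against rhizome_Y FPKM, both plus 0.1 on log axes, for the 237 members, with the line of equal level and the 1.5-fold limits. Of the members, 32 lie on or above the upper limit, the largest at 14.2-fold, and 18 lie at 0 in flower.

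The members highest in flower were 7 unigenes with an FPKM of 1092 to 1761. Their leaf FPKM was 3.02 to 8.45, their rhizome_Y FPKM 89.1 to 1038 and their secRoot FPKM 9.42 to 162. All 7 were higher in flower than in rhizome_Y. One of the 7 had an enzyme entry, linoleate 13S-lipoxygenase, described with the oxylipin enzymes. Over the 32 members with flower at least 1.5 times rhizome_Y, the median ratio was 1.81 and the highest 14.2.

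At the other end, 18 members had 0 counts in flower (7.59%, background 0.782%), and the mirror set had 11 of 191 (5.76%). Of the 18, 17 also had at most 1 count in secRoot, 13 of them none. These 17 had 104 to 258 counts in rhizome_Y (median 148), an FPKM there of 23.2 to 226 (median 78.4), 0 to 8 counts in rhizome_O and 0 or 1 count in leaf. They were therefore read almost wholly in the young rhizome library. Set against the 3 counts per library that a 0 allows, their CPM in rhizome_Y was at least 29.4-fold to 72.9-fold higher than in flower, and in the 13 without a count in secRoot at least 60.1-fold to 149-fold higher than there. No unigene past the minimum other than these 17 combined 0 counts in flower with at most 1 in secRoot, so none was read in this way in rhizome_O alone. Their longest contigs measured 328 to 1946 bp with a median of 1054 bp, and none of the 17 had an enzyme entry. They passed the count minimum through rhizome_Y alone, and 2 of them met the second step with 0 counts in both rhizome_O and secRoot. The sources used here give them no name, and which organism or cell type they come from could not be checked, so their rhizome_Y values and folds stand for reads in that library only. Among the other 220 members the median ratio of rhizome_Y to secRoot was 4.73 and the median flower FPKM 32.6.

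In leaf, 101 members had 0 counts (42.6%, background 47.5%), 80 had 1 or 2 counts (33.8%, background 35.9%) and 37 had 5 or more (15.6%, background 8.52%). The mirror set was emptier in leaf, with 134 of 191 at 0 counts (70.2%) and 7 at 5 or more (3.66%). The levels were low in every set. In the members the leaf FPKM was a median of 0.188% of the highest FPKM among the other 4 tissues. That median was 0.133% over all unigenes past the minimum and 0% in the mirror set. In the 37 members with 5 or more leaf counts it was 0.361%. Of those 37, 11 belonged to the 32 members with flower at least 1.5 times rhizome_Y. Only 3 members had a leaf level above 5% of their highest other tissue, and none of the 3 had an enzyme entry. The highest of them had 203 counts in leaf, with an FPKM of 27.9 in leaf, 52.2 in flower, 17.98 in rhizome_Y, then 10.8 in rhizome_O and 6.54 in secRoot.

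**Figure D3:**
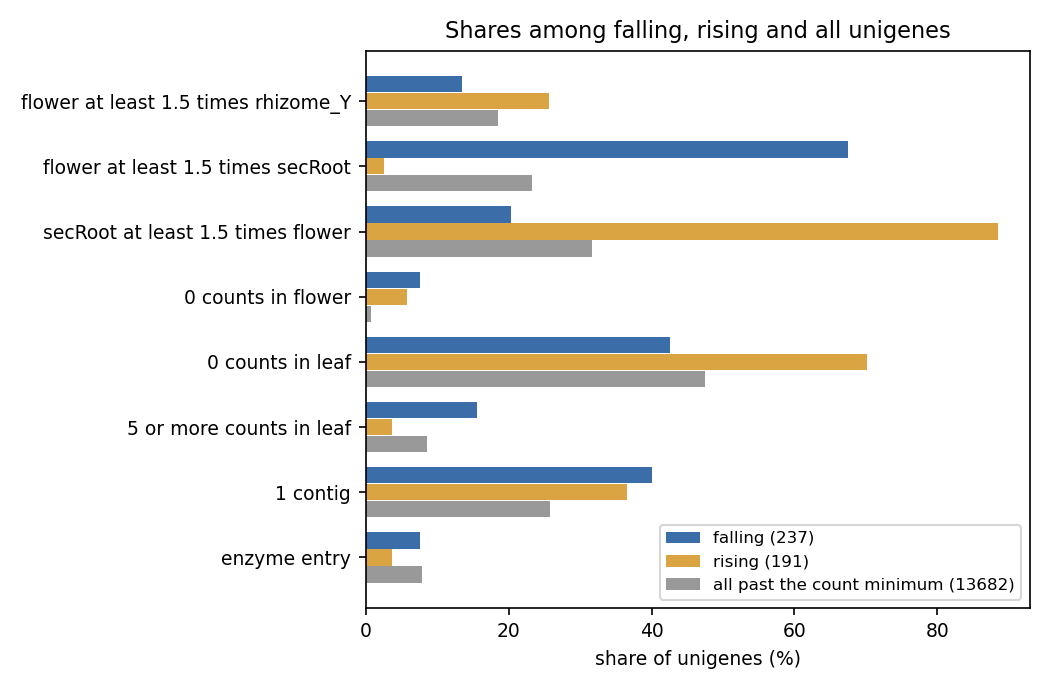
Share of unigenes in percent, for the 237 falling members, the 191 rising unigenes and all 13682 past the count minimum, with bars from 0. The leaf and contig bars do not rest on values the rule used: 42.6% of members, 70.2% of rising unigenes and 47.5% of all had 0 counts in leaf, while the flower to secRoot bars rest partly on values the rule fixed.

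The members had shorter and fewer contigs than all unigenes past the minimum, and so had the mirror set. The longest contig had a median of 1195 bp in the members (range 241 to 3525 bp), 1126 bp in the mirror set and 1331 bp over all. A single contig made up 95 members (40.1%, background 25.8%) and 70 of 191 in the mirror set (36.6%). Across 4 equal classes of length from shortest to longest, members made up 2.1%, 1.9%, 1.7% and 1.2% of unigenes, and rising unigenes 1.9%, 1.4%, 1.5% and 0.79%. By total underground count the members showed no such one-way order. They made up 101 of 4376 unigenes with under 200 counts (2.31%), 70 of 4747 with at least 200 but under 500 (1.5%), 44 of 3631 with at least 500 but under 2000 (1.2%) and 22 of 928 with 2000 or more (2.37%), so both the weakest and the strongest classes held the larger shares. The rising unigenes held 1.4%, 1.4%, 1.5% and 0.97% of the same classes. The 237 members came from 216 Trinity components, the read clusters of the assembly, and 36 members shared a component with another, up to 4 in one. Members of the same component can be pieces of a gene or close copies, so they are not independent of each other.

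**Figure D4:**
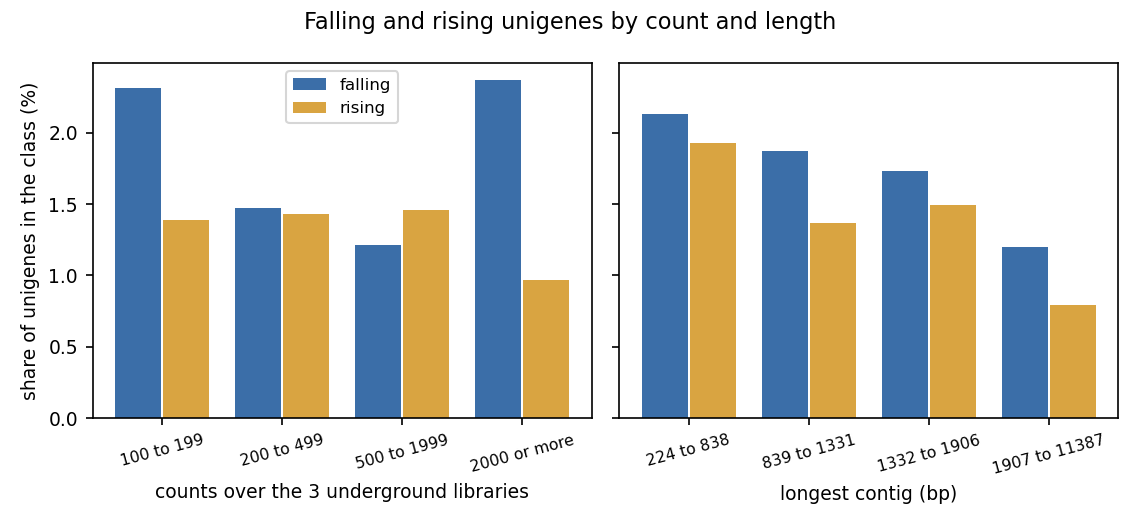
Share of unigenes in percent that fall (blue) or rise (yellow) at both steps, by class of total underground counts (left) and by class of length (right), with bars from 0. Falling unigenes made up 2.31% of the weakest and 2.37% of the strongest count class, and their share was 2.1% in the shortest and 1.2% in the longest length class.

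Members had enzyme entries about as often as all unigenes past the minimum. An entry stood for 18 members (7.59%, background 7.9%) and for 7 of 191 in the mirror set (3.66%). The enzyme table was held only in part, with 1130 entries of which 488 had their contig list cut short, so these counts are lower limits. Of 14 lists of enzymes by pathway, 6 held a member, and 7 of the 333 list unigenes past the minimum were members (2.1%, background 1.73%). These shares are close, and at such a share a short list can hold none. Nothing is therefore read about a pathway from the number of members in a single list. The lists of phenylpropanoid, cell wall, ethylene and S-adenosylmethionine, redox, nitrogen assimilation, DNA synthesis, phenol and amine oxidizing enzymes and aminoacyl-tRNA ligases held none. The phenylpropanoid list, whose enzymes make lignin precursors, had 0 members and 1 rising unigene among 31, with a median log2 ratio of rhizome_Y to secRoot of -0.87, and the cell wall list had 0 members and 1 rising among 36, with a median of -0.07. Over all 13682 unigenes that median was -0.02, each with 0.1 added to the FPKM.

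**Figure D5:**
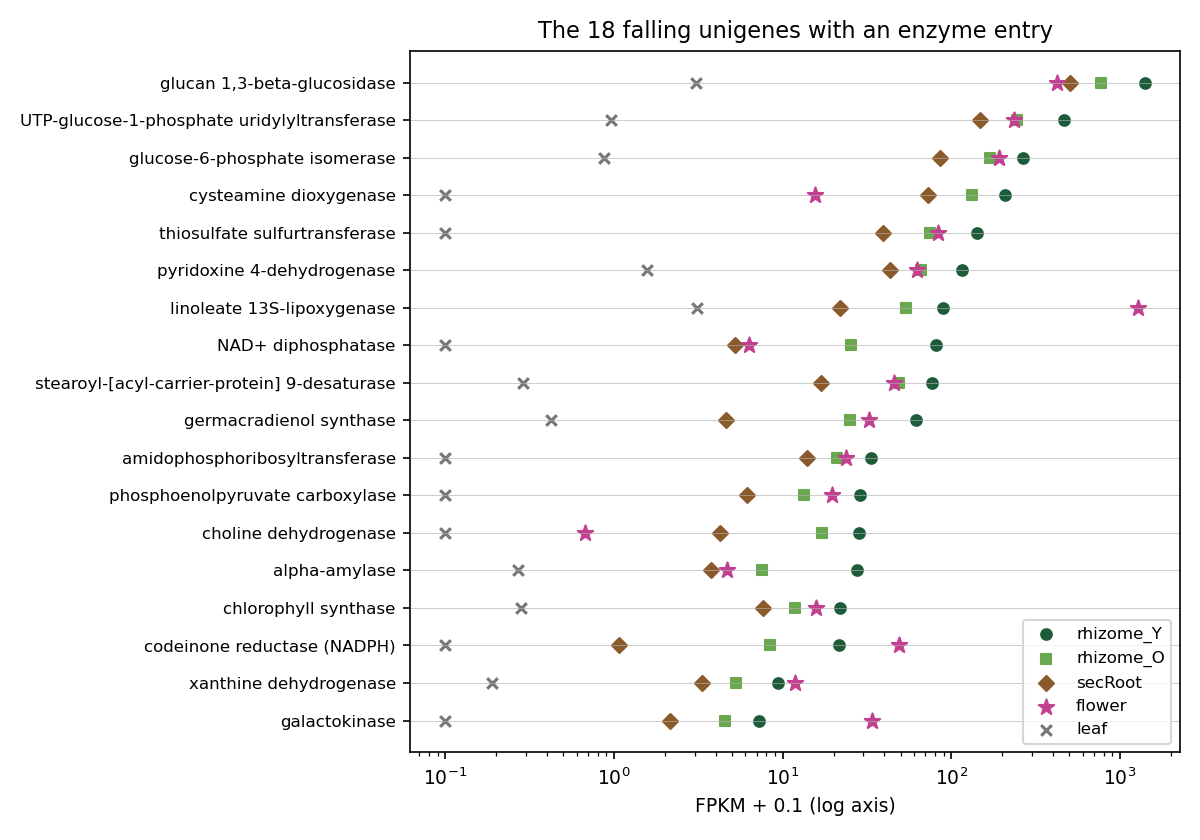
FPKM plus 0.1 on a log axis in the 5 libraries for the 18 members with an enzyme entry, ordered by rhizome_Y; a unigene with 2 entries is shown by one of them. The 3 underground symbols keep the order the rule demands, while the flower star runs from 0.57 in the choline dehydrogenase unigene to 1268 in the lipoxygenase unigene, and leaf stays at or below 3.02.

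Starch and sucrose enzymes gave 2 members and 1 rising unigene among 39 past the minimum, and the list's median log2 ratio of rhizome_Y to secRoot was 0.67. The first was UTP-glucose-1-phosphate uridylyltransferase (TR56407|c4_g2, 1958 bp), which makes UDP-glucose, the sugar donor for sucrose, cell wall glucans and glycosides. Its FPKM was 466 in rhizome_Y (interval 447 to 485), then 244 in rhizome_O (232 to 257) and 147 in secRoot (139 to 155), with 235 in flower (220 to 250) and 0.86 in leaf (0.35 to 1.77). Flower and old rhizome thus overlapped within counting error, and flower lay between the young rhizome and the root. The second was alpha-amylase (TR51702|c0_g1, 1424 bp), which cuts starch from within. It had 99 counts and an FPKM of 27.4 (22.2 to 33.3) in rhizome_Y, then 7.42 in rhizome_O and 3.67 (2.33 to 5.51) in secRoot, with 4.56 (2.49 to 7.65) in flower and 0.17 in leaf. The low root level was set by the rule, and the flower level overlapped it within counting error. Another alpha-amylase unigene past the minimum had 17.2 in rhizome_Y, and as the contig list of this enzyme was cut short, there may be more.

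Glucan 1,3-beta-glucosidase (TR64836|c2_g1, 2051 bp), which trims glucose from the ends of beta-1,3-glucans such as callose, was the most abundant member with an entry. Its FPKM was 1399.9 (1363 to 1438) in rhizome_Y, then 773 in rhizome_O and 505 in secRoot, with 425 (404 to 447) in flower and 2.95 in leaf. Flower was the lowest of the 4 non-leaf tissues here, below secRoot beyond counting error. Galactokinase (TR65783|c0_g2, 3222 bp), which phosphorylates free galactose, stood at the other extreme with an FPKM of 33.6 (29.1 to 38.7) in flower, then 7.18 in rhizome_Y, 4.42 in rhizome_O and 2.05 in secRoot, with 0 in leaf. It was the only member whose CPM was higher in rhizome_O than in rhizome_Y, with 12.3 in rhizome_Y, then 13.6 in rhizome_O and 6.3 in secRoot. Its FPKM was summed over 2 contigs, and at the first step the FPKM and the counts went in opposite directions.

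Central carbon enzymes gave 1 member among 59 unigenes of the glycolysis, fermentation and citrate cycle list, whose median log2 ratio of rhizome_Y to secRoot was 0.37. Glucose-6-phosphate isomerase (TR63445|c1_g1, 2162 bp) interconverts glucose 6-phosphate and fructose 6-phosphate. It had an FPKM of 265 (250 to 280) in rhizome_Y, then 169 (158 to 181) in rhizome_O and 85.4 (78.9 to 92.3) in secRoot, with 190.45 (177 to 204) in flower and 0.77 in leaf. The flower level lay nearest to the old rhizome. Phosphoenolpyruvate carboxylase (TR56689|c0_g1), which refills the citrate cycle with oxaloacetate and stands in none of the lists, had an FPKM of 28.8 in rhizome_Y, then 13.2 in rhizome_O and 6.07 in secRoot, with 19.55 in flower and 0 counts in leaf.

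Linoleate 13S-lipoxygenase (TR64549|c1_g4, 2938 bp) was the only member among 16 unigenes of the oxylipin list, whose median log2 ratio of rhizome_Y to secRoot was -0.27. The enzyme adds oxygen to linoleate and linolenate, the entry to jasmonate and leaf aldehydes. Its FPKM was 1268 (1228 to 1308) in flower, then 89.1 (79.5 to 99.4) in rhizome_Y, 53.6 (47.0 to 60.9) in rhizome_O and 21.8 (18 to 26) in secRoot, with 3.02 (2.12 to 4.18) in leaf. Flower was 14.2 times rhizome_Y (interval 12.7 to 16) and 58.1 times secRoot, the largest flower to rhizome_Y ratio of all members. The contig list of this enzyme was cut short, so there may be more unigenes of it than those seen. The 2 others seen past the minimum reached at most 97.7 in rhizome_Y, and neither was 1.5-fold apart between rhizome_Y and secRoot.

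Lipid and terpene enzymes gave a member each. Stearoyl-[acyl-carrier-protein] 9-desaturase (TR44904|c0_g1, 1404 bp), which makes oleate from stearate in plastids, had an FPKM of 76.4 (67.4 to 86.2) in rhizome_Y, then 48.9 in rhizome_O and 16.8 (13.7 to 20.5) in secRoot, with 45.5 (38.1 to 54.0) in flower and 0.19 in leaf. It was 1 member among 18 unigenes of the fatty acid list (median log2 ratio 0.06), and the 2 other unigenes of this enzyme were both at least 1.5 times higher in rhizome_Y than in secRoot as well. The terpene member carried the entry germacradienol synthase (TR61294|c0_g1, 826 bp), a sesquiterpene cyclase known from Streptomyces. Its FPKM was 61.8 (49.98 to 75.5) in rhizome_Y, then 24.8 (18.03 to 33.3) in rhizome_O and 4.52 (2.47 to 7.58) in secRoot, with 32.3 (23.3 to 43.7) in flower and 0.32 in leaf. Root was below flower beyond counting error, while its place below both rhizome ages was set by the rule. It was the only member among 12 unigenes of the isoprenoid list, whose median log2 ratio was 0.57.

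Cytochrome P450s and enzymes tied to sugar conjugation, among which the paper searched for saponin candidates, were followed through its list of 897 unigenes. That list was chosen mainly by annotation and also holds triterpene backbone enzymes, so a listed unigene need not act in saponin synthesis. Of 331 listed unigenes past the minimum, 11 were members (3.32%, background 1.73%) and 8 were in the mirror set. The 11 made up 4.64% of the members and the 8 made up 4.19% of the mirror set (background 2.42%). Falling and rising unigenes thus held a like share of the list. The 11 had an FPKM of 22.0 to 466 in rhizome_Y, a ratio of rhizome_Y to secRoot of 2.71 to 7.08, a flower FPKM of 5.66 to 235 and at most 0.86 in leaf, and flower lay above rhizome_Y in 3 of them. The highest in rhizome_Y was the UTP-glucose-1-phosphate uridylyltransferase unigene described above. The P450 CYP716A53v2 (TR49263|c0_g1), which hydroxylates the dammarane skeleton in ginseng, was not a member. Its 48 underground counts were below the minimum, and it also failed the first step of the rule. In flower its FPKM was 14.13, compared with 4.36 in rhizome_Y and 5.25 in rhizome_O, 1.4 in secRoot and 0.33 in leaf. The paper ranks this unigene highest underground, with young rhizome first, then old rhizome, then secondary root. The values given here place flower highest and rhizome_O above rhizome_Y. The rhizome values rest on few reads, 16 counts in rhizome_Y and 23 in rhizome_O.

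Sulfur, vitamin and nucleotide enzymes outside the lists made up several of the remaining entries. Cysteamine dioxygenase (TR45910|c0_g1, 1304 bp), a thiol-oxidizing enzyme family whose Arabidopsis relatives are the plant cysteine oxidases, had an FPKM of 207 (190 to 225) in rhizome_Y, then 132 in rhizome_O and 72.4 (64.6 to 80.9) in secRoot, with 15.4 (10.5 to 21.7) in flower and 0 counts in leaf. It was thus an underground unigene, with flower below every underground tissue. Thiosulfate sulfurtransferase (TR52250|c0_g1, 917 bp), which transfers sulfur to acceptors such as cyanide, had 141 in rhizome_Y, then 74.0 in rhizome_O and 39.1 in secRoot, with 83.2 in flower and 0 in leaf. Pyridoxine 4-dehydrogenase (TR55572|c0_g1, 1341 bp), which interconverts forms of vitamin B6, had 115 in rhizome_Y, then 65.6 in rhizome_O and 43.4 in secRoot, with 62.6 in flower and 1.46 in leaf. In these last enzymes the flower level matched that of the old rhizome within counting error.

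A unigene with entries for NAD+ diphosphatase and nucleotide diphosphatase (TR66054|c0_g1, 1504 bp), which split the phosphate bridge of nucleotides, had a ratio of rhizome_Y to secRoot of 15.7, exceeded among the members with an entry only by the codeinone reductase unigene with 22.0. Its FPKM was 80.7 (69.8 to 92.9) in rhizome_Y, then 25.3 (18.8 to 33.3) in rhizome_O and 5.14 (3.33 to 7.59) in secRoot, with 6.25 (3.00 to 11.5) in flower and 0 in leaf, so that secRoot and flower overlapped. A unigene with entries for choline dehydrogenase and (R)-mandelonitrile lyase (TR62133|c0_g2, 2344 bp) had 28.3 (24.2 to 32.9) in rhizome_Y, then 17.05 in rhizome_O and 4.17 (3.04 to 5.58) in secRoot, with 0.57 (0.12 to 1.7) in flower, from 3 counts, with none in leaf. Chlorophyll synthase (TR64170|c0_g1, 1526 bp), which attaches the phytol tail to chlorophyllide and was the only member among 9 green tissue unigenes, had 21.7 (17.2 to 26.9) in rhizome_Y, then 11.8 in rhizome_O and 7.49 in secRoot, with 15.6 (11.6 to 20.6) in flower and 0.18 from 1 count in leaf. Over all 13682 unigenes past the minimum the median leaf FPKM was 0.1, so such a low leaf value was common. Low leaf values of the named unigenes therefore do not show that leaf lacks these enzymes. Whether leaf reads of an enzyme were assigned to other unigenes was not tested.

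The remaining entries were named after their values were seen. Codeinone reductase (TR59151|c0_g1), an aldo-keto reductase name taken from opium poppy, had an FPKM of 48.8 (40.6 to 58.1) in flower, 21.3 in rhizome_Y, then 8.34 in rhizome_O and 0.97 in secRoot (5 counts), with none in leaf. Flower was 2.29 times rhizome_Y (interval 1.68 to 3.14). A unigene with entries for xanthine dehydrogenase and aldehyde oxidase (TR56658|c0_g1) had 11.7 in flower against 9.29 in rhizome_Y, then 5.20 in rhizome_O and 3.24 in secRoot, with 0.09 in leaf. Its ratio of flower to rhizome_Y was 1.255, with an interval of 0.783 to 1.99 that holds 1. Amidophosphoribosyltransferase (TR66601|c0_g1), the first step of purine synthesis, had 33.3 in rhizome_Y, then 20.8 in rhizome_O and 13.84 in secRoot, with 23.7 in flower and 0 in leaf. In the last of these, in the xanthine dehydrogenase unigene and in galactokinase, the step intervals of the counts did not both lie above 1. Galactokinase, phosphoenolpyruvate carboxylase and these entries fall outside the naming rule.

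Many of these enzymes had their contig list cut short, so more unigenes may carry the same names than could be seen. In the lists as held, the names also occurred on 31 other unigenes past the minimum, and none of the 31 was a member. Among these, rhizome_Y was at least 1.5 times secRoot in 13 (41.9%, background 17.1%) and secRoot at least 1.5 times rhizome_Y in 2. The unigenes that share a name can be close copies whose reads the counting divides between them, so their values are not independent of the members'.

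Most members, 219 of 237, had no enzyme entry, among them the most abundant ones. The highest in rhizome_Y was TR50224|c0_g1 (534 bp), with an FPKM of 3594 (3462 to 3730) in rhizome_Y, then 1562 in rhizome_O and 384 (352 to 418) in secRoot, with 652 (593 to 716) in flower and 3.38 (1.2 to 7.36) in leaf. The second was TR91225|c0_g1 (280 bp), with 1976 (1836 to 2124) in rhizome_Y, then 815 in rhizome_O and 392 (345 to 443) in secRoot, with 40.7 (21.7 to 69.7) in flower and 0 counts in leaf. Their flower levels thus differed in rank, above secRoot in the first and below it in the second. The 10 members with the highest rhizome_Y FPKM took 32.7% of the members' counts in that library.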

How the data were processed

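RNA of 5 tissues of a single plant was measured, 1 library per tissue. The authors trimmed reads with Trimmomatic, assembled all libraries together with Trinity 2.0.6, aligned with Bowtie 2.0 and estimated abundance with RSEM (version, as for Trimmomatic, not given in the sources used here). For each of 206610 contigs, the deposited expected counts, all whole numbers, give the read pairs assigned by the authors' RSEM run. The deposited FPKM are these counts divided by the authors' RSEM run by effective length and depth, and the deposited TPM are scaled to an equal sum per library. Lengths and effective lengths per contig are other values deposited by the authors. No deposited per-sample column was left unused (0 columns).

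Counts, FPKM and TPM were summed over the contigs of a unigene, and FPKM sums over contigs of unequal length can order tissues differently from counts. Length is that of the longest contig. Intervals are exact Poisson intervals of counts, or exact conditional intervals for ratios, at 95%. Both cover counting error only, and reads from PCR copies are not independent molecules. The rule and intervals were also run on simulated counts as CPM, with counting error only. There, chosen unigenes fell more steeply at each step than most members do, and the rest were flat. That run says nothing about falls near the 1.5-fold limit, summed FPKM or differences between libraries. No test between tissues was made. Members, enzyme lists and the naming rule were chosen with earlier results of these data known. The rule named, in each of 14 enzyme lists, up to 3 members with the highest FPKM in rhizome_Y, the 10 entry-bearing members with the largest ratio of rhizome_Y to secRoot and at least 100 counts in rhizome_Y, the 3 highest in flower and in leaf, the 2 highest without an entry, and CYP716A53v2. Alternatives were TPM, CPM, TMM scaling (edgeR 4.0.16, R 4.3.3, on the counts rounded to whole numbers), folds of 1.25 and 2, minimums of 50 and 200 counts or none, the most abundant contig, and members beyond counting error. The work was done in Python 3.11.15 (pandas 2.3.3, numpy 2.4.6, matplotlib 3.10.9, scipy 1.17.1). Sequences and a genome were not used here.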

Additional observations from a re-analysis of the deposited data

How the results depend on the processing

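No paired analysis was possible because each tissue has 1 library, and no replicate could be left out. Over 7 results and 11 settings, 58 of 77 values stayed within the range set for the result (1.5 times for the number of members, the 95% interval over members otherwise), and 19 did not. That interval treats the members as independent of each other, which they are not. The range is therefore only a yardstick for the size of a shift and not a measure of error between libraries. TPM, CPM, TMM scaling and the demand for both step intervals above 1 moved none of the 7 results out of that range. They shared 234, 212, 192 and 192 of the 237 members. With only the most abundant contig of each unigene, 185 unigenes were chosen, and 161 of the 237 members were among them (67.9%). The number of members was 637 at the lower fold, 73 at a fold of 2, 136 with a minimum of 200 counts and 5940 with no minimum beyond 1 count in rhizome_Y. The share of members with secRoot at least 1.5 times flower was 14.6% at the lower fold, 34.2% at a fold of 2 and 54.5% with no minimum. It was 14% without the 17 members at 0 counts in flower and at most 1 in secRoot, a setting chosen after seeing the data. The median flower FPKM was 18.5 at a fold of 2, 23.9 with a minimum of 50 counts, 53.6 with a minimum of 200, 0 with no minimum and 34.9 with the most abundant contig. The share at 0 counts in leaf was 54.9% with a minimum of 50, 30.9% with a minimum of 200 and 78.4% with no minimum. The median length was 1007 bp with a minimum of 50 and 314 bp with no minimum, and the share with an enzyme entry 4.11% with no minimum. Lower minimums add unigenes with fewer counts, and why the other values moved was not tested. Counting an enzyme only where all listed contigs of a unigene carry it changed the member and rising counts in 0 of 14 lists. Of the members, 28 had fewer than 10 counts in secRoot, so their second ratio rests on few reads.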
